A study of Caenorhabditis elegans with 2 samples.

Results

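The regions described here are the autosomal regions of an NPAX-4 binding experiment whose summits lay inside introns and away from promoters and small RNA genes. They numbered 3089 of 11555 regions (26.7%). The experiment was a chromatin immunoprecipitation with sequencing (ChIP-seq), in which DNA bound by a tagged protein is recovered with an antibody and sequenced. Both replicates were whole late embryos of the Caenorhabditis elegans hermaphrodite strain OP493, genotype unc-119(tm4063) III; wgIs493, which carries NPAX-4 with a GFP-FLAG tag at its C terminus. They were taken 4 h after synchronization by egg bleaching, and anti-GFP antibody was used. There was 1 condition with 2 biological replicates, both from this single transgenic strain, so no treated or mutant group exists and comparisons are between sets of regions and between replicates. The control library was not analysed here.

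Members were taken from the authors' relaxed joint list, which was made from both replicates and holds 12454 regions on build ce11, or 11555 after regions that overlap a stronger one were removed. Of these, 9856 were autosomal, and the summit had to lie in a protein-coding gene but in no exon. A further step left 3793 that were also over 500 bp from every tRNA, snoRNA, snRNA, miRNA and piRNA gene. The last step kept the 3089 that were outside the zone from 1000 bp upstream to 100 bp downstream of any protein-coding 5′ end. No measured value entered this choice beyond presence in the list and the choice among overlapping regions. The word intronic holds for the summit only. Regions were 450 bp wide in 99.97% of members, and 1527 members (49.4%) overlapped an exon somewhere along their length.

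NPAX-4 belongs to the Pax-related proteins, which carry a paired domain, a DNA-binding domain first described in the Drosophila gene paired. Pax proteins of many animals regulate organ and neuron development, and they often act through enhancers. Introns of C. elegans can hold such enhancers, and they can also hold whole noncoding genes, transposon remnants and pseudogenes. Transcription of tRNA genes by RNA polymerase III uses promoter elements inside the gene, called the A box and the B box. A tRNA-like sequence in an intron can therefore carry these elements without being annotated as a gene.

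The authors thresholded the joint list on the irreproducible discovery rate (IDR), which scores how well the ranks of regions match between replicates, and kept 354 regions. Of the members, 6 overlapped such a region (0.194%, 95% exact Clopper-Pearson interval 0.0713 to 0.422%), where 2.95% of all regions did. The count was 10 (0.303%) with overlapping regions kept, 10 (0.282%) where only gene 5′ ends defined promoters and 9 (0.287%) where only exons of protein-coding genes were set aside. These 6 IDR members lay in M01F1.8, srt-52, W06H8.6, unc-104, ncl-1 and hmt-1. Their windows, which reach 75 bp to either side of the summit, are shown because no other members passed the IDR threshold. They are the plus strand of ce11, read from the RefSeq WBcel235 genome. Capitals mark words searched on either strand: TCACGC as in paired-domain half-sites, GTTCGA as in the B box, GAGAGA and the similar repeat CACACA, the E box CACGTG, the GATA-type CTTATC, the TATA-type TATAAA, the GC-box core GGGCGG and the word TGTCTC.
M01F1.8: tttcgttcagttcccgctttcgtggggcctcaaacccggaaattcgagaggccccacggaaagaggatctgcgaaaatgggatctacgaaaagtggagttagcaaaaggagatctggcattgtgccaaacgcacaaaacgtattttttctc
srt-52: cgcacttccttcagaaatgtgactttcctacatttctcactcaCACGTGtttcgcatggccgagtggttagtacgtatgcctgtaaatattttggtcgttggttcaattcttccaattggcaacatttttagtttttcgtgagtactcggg
W06H8.6: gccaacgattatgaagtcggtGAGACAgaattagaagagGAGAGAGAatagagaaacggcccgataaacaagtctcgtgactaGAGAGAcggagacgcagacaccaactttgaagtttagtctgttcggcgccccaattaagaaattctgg
unc-104: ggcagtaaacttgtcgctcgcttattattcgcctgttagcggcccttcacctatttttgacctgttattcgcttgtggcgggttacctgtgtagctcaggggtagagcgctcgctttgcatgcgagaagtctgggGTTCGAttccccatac
ncl-1: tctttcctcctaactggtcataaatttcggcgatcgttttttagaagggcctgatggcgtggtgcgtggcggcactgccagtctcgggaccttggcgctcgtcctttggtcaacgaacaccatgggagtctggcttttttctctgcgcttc
hmt-1: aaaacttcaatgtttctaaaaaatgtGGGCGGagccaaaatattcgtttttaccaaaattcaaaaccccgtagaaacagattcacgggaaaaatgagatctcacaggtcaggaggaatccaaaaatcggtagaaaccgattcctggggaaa

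No window of the 6 held TCACGC, a half-site of the paired domain. No marked word was shared by the 6 windows. The word CACGTG stood in the srt-52 window, GAGAGA and TGTCTC in the W06H8.6 window, GTTCGA in the unc-104 window and GGGCGG in the hmt-1 window. The windows of M01F1.8 and ncl-1 held none of the marked words. A further word that was searched, TTTTTT, was not marked. It was in the windows of M01F1.8, ncl-1 and hmt-1, in 67.3% of other member windows and in 60.1% of all regions.

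The strongest member lay in a 1170 bp intron of M01F1.8, on chromosome III from 3499914 to 3500112. Its signal, the authors' value with no stated scale, was 228 in the joint list, 105.4 in replicate 1 and 126 in replicate 2. It ranked 44 of 19207 regions in replicate 1 and 29 of 18799 in replicate 2. Its summit was 1009 bp upstream of the 5′ end of M01F1.9, so it passed the promoter rule by 9 bp.

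The member in srt-52, a gene of the serpentine chemoreceptor family, lay in a 3934 bp intron on chromosome V from 53277 to 53726. Its signal was 110 in the joint list, 55.8 in replicate 1 and 53 in replicate 2, with rank 201 in each replicate. The member in W06H8.6 lay on chromosome V from 6224517 to 6224966, with signals of 99.9 in the joint list, 61.6 in replicate 1 and 47.0 in replicate 2. Its summit was 4 bp from the annotated noncoding RNA gene W06H8.16, a class that the rule did not remove.

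The member in unc-104, which encodes a kinesin motor that carries synaptic vesicle precursors along axons, lay on chromosome II from 7001393 to 7001842. Its signal was 93.4 in the joint list, 52.1 in replicate 1 and 43.1 in replicate 2. The summit was 9 bp from C52E12.t1, which RefSeq lists as a tRNA pseudogene. The member in ncl-1, which encodes a repressor of nucleolar size and ribosomal RNA synthesis, lay in a first intron on chromosome III from 7729220 to 7729669. Its signal was 79.3 in the joint list, 46.1 in replicate 1 and 34.2 in replicate 2, and its summit was 566 bp downstream of the 5′ end of the gene ZK112.4, which lies within the same intron. The member in hmt-1, which encodes an ABC transporter for heavy metal tolerance, lay on chromosome III from 11093376 to 11093825. Its signal was 78.5 in the joint list and 37.9 in each replicate.

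The call ends just under these 6. The lowest signal of any IDR-thresholded region was 76.4. The next members lay in Y111B2A.12 (signal 75.7, joint rank 360), znf-593 (75.3), Y39A1C.1 (73.6) and golg-4 (73.3), and none of these overlapped an IDR-thresholded region. The IDR call follows the joint signal, so the 2 are not separate lines of evidence.

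**Figure D1:**
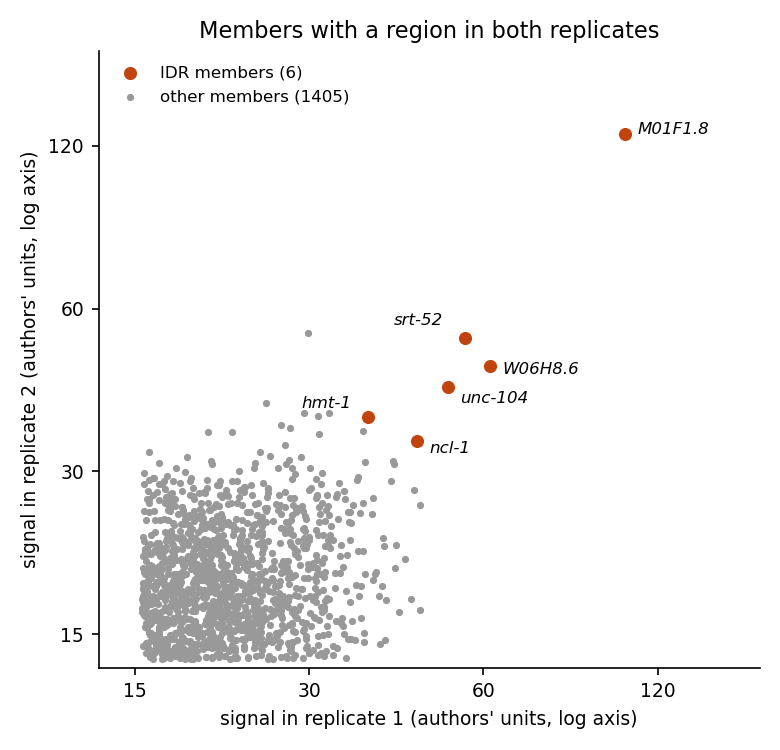
Signal of the 1411 members with a region in both replicates, replicate 1 on the horizontal axis and replicate 2 on the vertical axis, both log axes in the authors' units. The 6 IDR members (large points, named by host gene) sit at the upper right, and the 1405 other members (small points) form a cloud with little slope. The joint signal is close to the replicates' sum and is at least 28.7 in every member, which limits the slope.

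IDR regions were rarer among intronic members than at promoters. Autosomal promoter regions that pass the same small RNA rule had 108 of 2971 IDR regions (3.64%, interval 2.99 to 4.37%). The difference between intronic members and promoter regions was -3.44 percentage points (Newcombe 95% interval -4.18 to -2.78). Autosomal intergenic regions away from promoters had 10 of 1957 (0.511%, interval 0.245 to 0.938%). The difference between intronic members and intergenic regions was -0.317 points (interval -0.757 to 0.0100), so a difference between these sets was not detectable. Autosomal regions with summits in exons, under the same promoter and small RNA rules, had 6 of 1140. Of the 341 IDR regions among all regions, 186 lay within 500 bp of small RNA genes, which the rule removes. All intervals take regions as independent and cover counting error only, and sequencing depth is unknown because the lists hold no read counts. In each replicate's own list, with its 354 highest regions in the place of the IDR call, the members' share was 0.352% in replicate 1 (16 of 4546) and 0.115% in replicate 2 (5 of 4360). Over all regions of these lists as deposited, the 354 highest were out of 19207 in replicate 1 and 18799 in replicate 2. The 2.95% over all regions of the joint list therefore does not apply to these lists.

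Signal among the members was low and narrow, as it was in most regions of the joint list. The joint signal ranged between 28.7 and 228 with a median of 34.6, and 3027 members (98%) were below 57.3, which is 2 times the lowest signal in the list. At 56.81 or more were 2.17% of members, 1.99% of intergenic, 8.18% of promoter and 5.82% of all regions. The median member stood at percentile 48.2 of the joint list, against 48.4 for intergenic regions and 54.5 for promoter regions. A signal of 60 or more was found in 40 members (1.29%, interval 0.927 to 1.76%), in 1.33% of intergenic regions, in 6.83% of promoter regions and in 4.87% of all regions. At 80 or more the shares were 0.129% of members (4 regions), 0.511% of intergenic regions, 3.26% of promoter regions and 2.75% of all regions. The authors' −log10 q was at most 1.35 among the members, with a median of 0.0565, and it was 1 or more in 31 members (1.00%), against 4.28% of all regions.

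**Figure D2:**
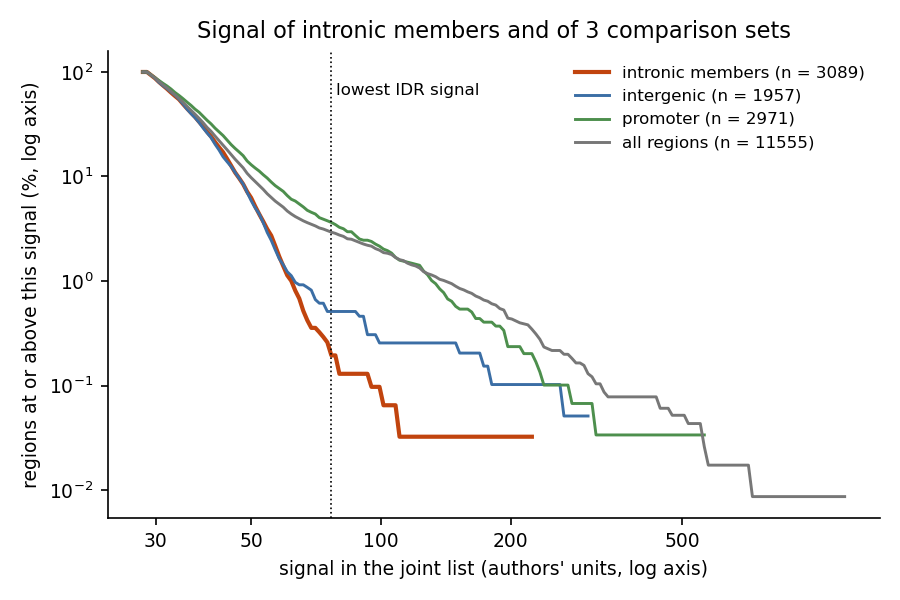
Percent of regions (vertical, log axis) whose joint signal is at or above the value on the horizontal log axis, in the authors' units, for intronic members and 3 comparison sets. The members' curve runs with the intergenic curve up to a signal of about 60 and ends at 228, and 6 members lie to the right of the dotted line at the lowest IDR signal of 76.4.

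Replicates were compared by overlap of at least 1 bp. A region in the lists of both replicates was found for 1411 members (45.7%, interval 43.9 to 47.5%), where 46.9% of all regions had one. The share was 44.6% (873 regions) in intergenic regions, and the difference of 1.07 points had an interval from -1.75 to 3.88. It was 50.3% (1493 regions) in promoter regions, a difference of -4.57 points (interval -7.08 to -2.06). Replicate 1 alone held 930 members (30.1%), replicate 2 alone held 669 (21.7%), and 79 members (2.56%) were in neither list. Over all regions these shares were close, at 28.4%, 22.1% and 2.56%. The joint list is made from the reads of both replicates, so these shares are not independent of the choice of members.

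Among the 1411 members in both lists, the Spearman correlation of the replicates' signals was 0.10. It was 0.10 over 873 intergenic regions and 0.30 over 1493 promoter regions, both as descriptions over regions that share libraries and a control. Among the 308 members of highest joint signal, 279 (90.6%) were in both lists, against 44 of the 309 lowest (14.2%).

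Members high in a replicate's own list were few. The 354 highest regions of replicate 1 took in 19 members (0.615%, where 2.97% of all regions were taken in). Those of replicate 2 took in 7 members (0.227%, where 2.93% of all regions were). Only 4 members were among the highest of both (0.129%, where 2.10% of all regions were), and they were those in M01F1.8, srt-52, W06H8.6 and unc-104. Intergenic regions, a smaller set, had 9 such regions and promoter regions 71. Over all regions, 343 were among the highest of replicate 1, 339 among those of replicate 2 and 243 among those of both. For members these counts were 19, 7 and 4. Of the 15 members that were among the highest of replicate 1 only, 4 had no region in replicate 2, and the other 11 had a median rank of 3374 there. Examples are the members in cdh-1, a cadherin gene, which had a signal of 46.7 in replicate 1 and 16.6 in replicate 2, and in twk-42, a potassium channel gene, which had 45.1 in replicate 1 and 17.4 in replicate 2. The cdh-1 member also lay within the gene R10F2.4. In the other direction, the member in mdt-26, which encodes a Mediator subunit, had 29.9 in replicate 1 and 54.2 in replicate 2, and the member in usp-39 had 59.2 in replicate 2 and no region in replicate 1.

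tRNA-like sequence was found in some of the strongest members. A pair made of an A box (TGGCNNAG or TAGCNNAG) and a B box (GGTTCGA or GGTTCAA) on one strand, with 25 to 90 bp between their starts, was in 25 member windows (0.809%). It was in 2 of the 6 IDR windows, those of srt-52 and unc-104. The search was chosen after these windows had been seen, so it is a description only. Over all regions 131 windows (1.13%) held a pair, with 18 in intergenic regions (0.92%) and 9 in promoter regions (0.303%). Of the 25 pairs, 6 among those of higher signal are printed here, each read 5′ to 3′ on the strand of the boxes, with the A box and the B box in capitals.
srt-52: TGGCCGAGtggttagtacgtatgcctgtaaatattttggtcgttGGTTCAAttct
unc-104: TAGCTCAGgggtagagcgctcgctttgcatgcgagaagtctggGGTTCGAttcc
dpy-21: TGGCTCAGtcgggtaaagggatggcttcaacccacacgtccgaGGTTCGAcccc
ncs-5: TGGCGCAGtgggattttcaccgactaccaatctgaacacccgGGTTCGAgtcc
vab-19: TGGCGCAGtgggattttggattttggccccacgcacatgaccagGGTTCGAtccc
xpd-1: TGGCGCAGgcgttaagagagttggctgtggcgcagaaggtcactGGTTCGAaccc

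The stretch in unc-104 runs from II:7001634 to 7001687 on the plus strand and overlaps the pseudogene C52E12.t1. The stretch in srt-52 runs from V:53483 to 53537 on the plus strand, and no tRNA gene or tRNA pseudogene was annotated near it. The nearest small RNA gene was a snoRNA gene at 14138 bp. The summit sequence of 51 bp occurred once in the genome for both of these members and for 22 of the 25.

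Signal over the 25 box members was wide. It ranged from 29.0 to 110 with a median of 36.6, which is percentile 58.8 of the joint list, and 14 of the 25 were above the median member. A region in both replicates was found for 12 of the 25, where 45.7% of all members and 46.9% of all regions had one. After srt-52 and unc-104, the strongest was in hmr-1 with 56.3 in the joint list, 42.9 in replicate 1 and 16.5 in replicate 2. A member in dpy-21, which encodes a histone H4 demethylase of the dosage compensation complex, had 50.4 in the joint list, 27.9 in replicate 1 and 24.3 in replicate 2. An IDR region was found for 2 of the 25 box members, for none of the 18 intergenic regions with a pair and for 1 of the 9 promoter regions. Over all regions with a pair, which include those at annotated tRNA genes, it was 45 of 131, with a median at percentile 90.6. Box members lay on the outer parts of chromosomes in 24 of 25 cases, where 84.8% of all members did, and 10 were on chromosome V, which held 20.04% of all members.

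Annotated tRNA pseudogenes, of which RefSeq lists 209 on nuclear chromosomes, lay within 500 bp of 11 member summits. The rule removed regions at tRNA genes but not at these. Their joint signals ranged from 29.0 to 93.4 with a median of 43.2, or percentile 80.6, and the unc-104 member was the only IDR member among them. The others of highest signal were in dyf-19 (52.8), klf-1 (47.1) and ncs-5 (46.4). Of the 11, 4 also held the pair of boxes. Other noncoding genes (ncRNA, lincRNA, antisense RNA or rRNA) lay within 100 bp of 44 member summits, whose median was percentile 42.2, and 1 of these, in W06H8.6, was an IDR member. The counts of 11 and 44 were made for members only, so whether they are high or low for the joint list is unknown.

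The 6 IDR members were richer in GC than the rest. Their windows had a GC content of 47.1 ± 5.79% (SD, n = 6 regions), against 34.9 ± 7.87% in the 3083 other members, a difference of 12.2 points. The 6 values ran from 39.1% in hmt-1 to 54.3% in ncl-1. Repeat-masked bases made up 16% of the IDR windows and 55.7% of the others. With the 354 highest regions of each replicate's own list in place of the IDR call, the difference in GC content was 4.63 points in replicate 1 and 8.14 points in replicate 2. Across all members the GC content was 34.96%, against 31.9% of the intronic bases that the rule allows, and the masked share was 55.6% against 55.4% of those bases. Base composition can affect recovery in sequencing, and its part in the result was not tested.

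The word GGGCGG, the core of the GC box bound by Sp-family zinc fingers in vertebrates, was the 6-base word with the largest excess in the 200 strongest members. It was in 26 of their windows (13.0%, interval 8.67 to 18.5%) and in 123 of the 2889 other members (4.26%, interval 3.55 to 5.06%), on either strand. All regions held it in 4.93% of windows. The 10 words examined included it, and a scan of all 2080 words of this length put it first, ahead of ATTGGG (13.0% against 5.43%). The next words were AGGCCG (10.0% against 2.80%), GCCTGA (13.5% against 6.65%) and CAGGCC (9% against 3.25%), which overlap one another on one strand or the other. Windows around some of the strongest members with the word, each on the strand of the word, show the flanking bases.
hmt-1: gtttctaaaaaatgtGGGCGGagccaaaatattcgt
znf-593: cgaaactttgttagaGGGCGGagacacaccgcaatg
mdt-26: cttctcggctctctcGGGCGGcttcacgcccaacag
hmt-1 (lower of the pair): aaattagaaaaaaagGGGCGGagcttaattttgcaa
atic-1: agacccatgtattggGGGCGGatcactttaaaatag
mex-1: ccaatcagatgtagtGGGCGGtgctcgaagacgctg
crh-1: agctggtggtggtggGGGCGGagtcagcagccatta

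The GC-rich word was not concentrated at the summit in the strongest members. Of 34 occurrences in the 200 strongest members, 8 (23.5%) were within 25 bp of the summit, where an even spread over the window gives 34.9%. Over all members it was 72 of 190 occurrences (37.9%). The word was followed by AG in 63 of 190 occurrences over all members (33.2%), as in the hmt-1 and znf-593 windows. Soft-masked repeat sequence held 84 of the 190 (44.2%). The gene hmt-1 held 2 of the windows shown, with joint signals of 78.5 and 54.8.

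Windows of the strongest members were also richer in GC, so the word was counted in 3 classes of GC content with cuts at 31.1 and 38.4%. In the class of highest GC content, 19 of 109 strongest windows held it (17.4%, interval 10.8 to 25.9%), against 74 of 938 other windows (7.89%, interval 6.25 to 9.80%). In the middle class the shares were 10.0% (5 of 50) and 3.47% (34 of 980), and in the lowest class 4.88% (2 of 41) and 1.54% (15 of 971). Intervals overlap in the 2 lower classes. For the highest 10% of each set, the share was 11.4% in intronic members (35 of 308), 3.59% in intergenic regions (7 of 195) and 16.2% in promoter regions (48 of 297). In the remaining regions of each set it was 4.10% in intronic members, 4.65% in intergenic regions and 5.42% in promoter regions. TCACGC was in 75 member windows (2.43%, interval 1.91 to 3.03%), against 2.66% of intergenic and 3.16% of promoter windows. It was in 9 of the 200 strongest members (4.5%, interval 2.08 to 8.37%) and in 2.28% of the others (interval 1.77 to 2.90%). These intervals overlap. In the highest 10% against the remaining regions, it was in 4.22% against 2.23% of members. The same shares were 1.54% against 2.78% in intergenic regions and 3.70% against 3.10% in promoter regions.

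**Figure D3:**
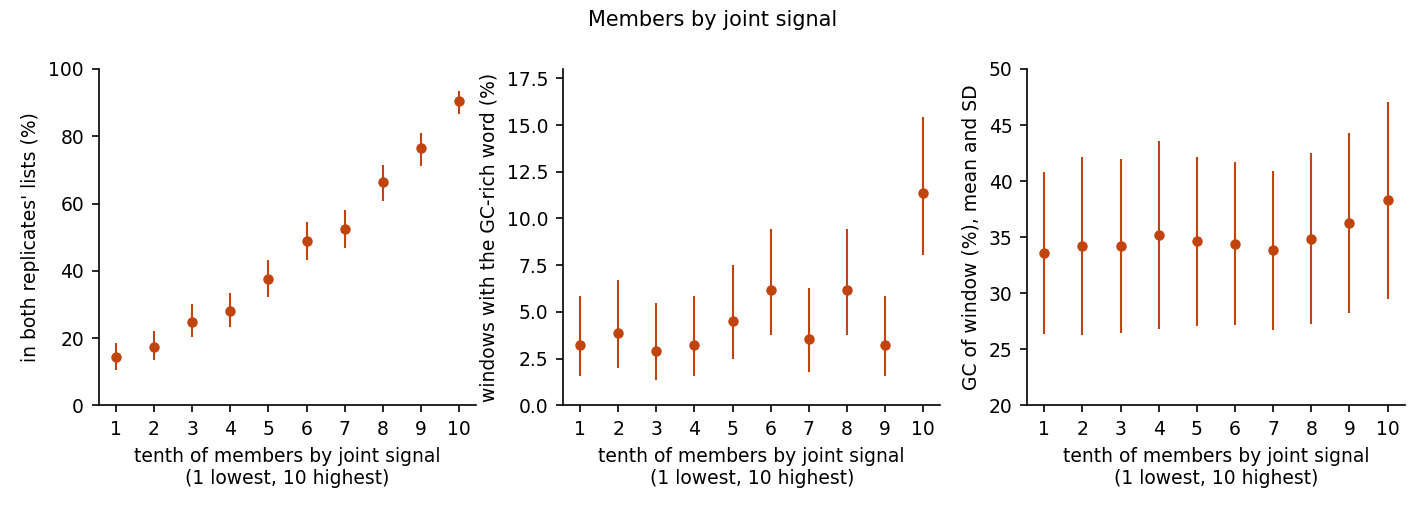
Members in 10 groups of equal size by joint signal, from lowest to highest. From left to right are the percent found in both replicates' lists and the percent of summit windows with the GC-rich word (bars are 95% exact intervals), and the mean GC content with bars of 1 SD over regions. The first panel runs between 14.2 and 90.6%, and the other 2 change mainly in the highest group, where 11.4% of windows hold the word and the GC content is 38.3%. The joint signal is made from both replicates, so the rise in the first panel is partly built in.

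Density was counted per Mb of eligible intron, the 21.5 Mb of autosomal intronic sequence that pass every position rule. It was 144 members per Mb, against 114 per Mb for intergenic regions and 152 per Mb for promoter regions. The IDR members gave 0.279 per Mb, intergenic IDR regions 0.583 and promoter IDR regions 5.51. By intron length, density was lowest in introns under 200 bp (66.2 per Mb, 186 members) and highest in introns of 500 bp to 1 kb (186 per Mb, 944 members). In introns of 5 kb or more it was 159 per Mb (344 members). The median member intron was 969 bp long, and the longest was 20993 bp.

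First introns held 981 members, or 155 per Mb, against 139 per Mb in later introns, a ratio of 1.12. Where only the first intron of the longest transcript counted as first, the ratio was 1.04. Density changed little with distance from the nearest 5′ end, from 138 per Mb under 500 bp to 164 per Mb at 5 kb or more. The outer parts of the chromosomes had 166 members per Mb, against 81.9 per Mb in the middle part, which runs from 33.3 to 66.7% of chromosome length. Intergenic regions had 128 and 84.0 per Mb for the same parts, and promoter regions 169 and 123. Chromosome III had the highest density of the autosomes, 168 members per Mb and 3 of the 6 IDR members, and IV the lowest, 127 per Mb and no IDR member. Promoter regions were also densest on III, with 201 per Mb, and intergenic regions on I, with 143 per Mb.

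**Figure D4:**
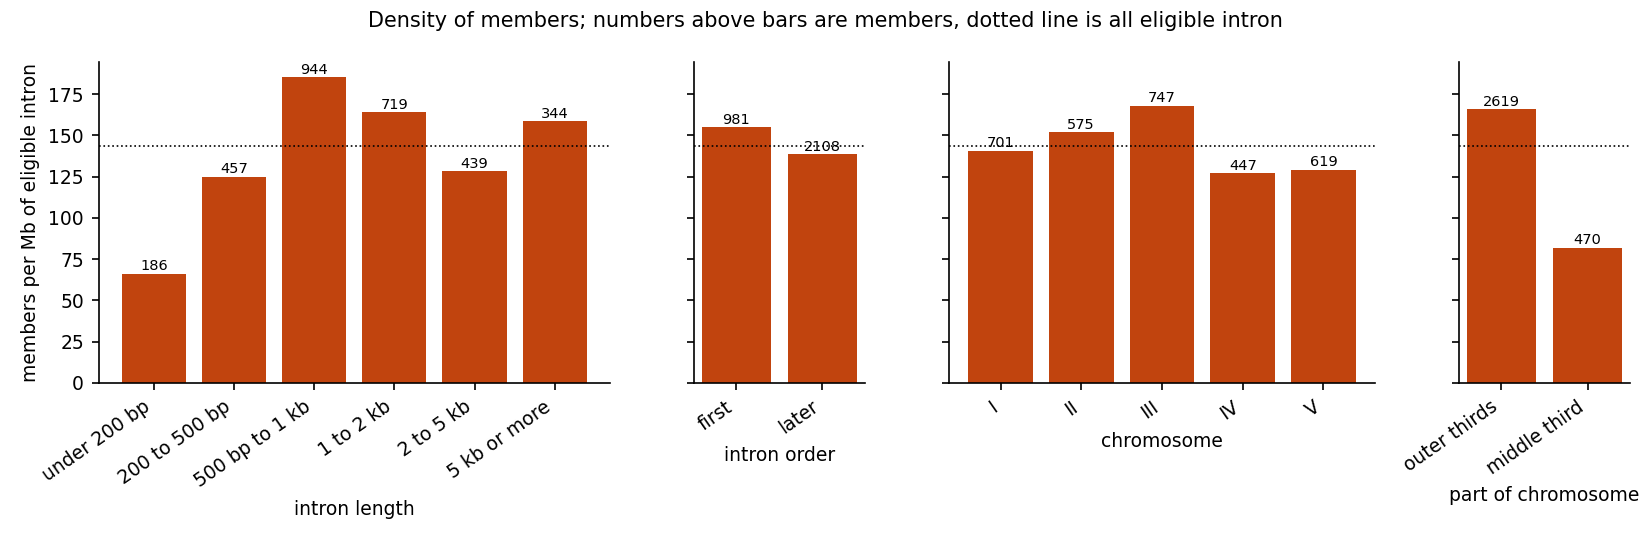
Members per Mb of eligible intron by intron length, intron order, chromosome and part of chromosome. Bars are densities with the number of members above them, and the dotted line is the density of all eligible intron, 144 per Mb. The shortest introns (66.2 per Mb) and the middle of chromosomes (81.9 per Mb) lie well below the line.

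The members lay in 2113 genes, which is 14.1% of the 14958 autosomal protein-coding genes with eligible intron. Of these genes 1557 held 1 member, 503 held 2 to 4 and 53 held 5 or more. Number of members followed length. The median host gene had 2974 bp of eligible intron against 499 bp in genes with no member, and the Spearman correlation of eligible length and number of members over genes was 0.44.

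The cadherin gene hmr-1 held the most members, 17 in 43.8 kb of eligible intron (389 per Mb). Their signals ranged from 28.7 to 64.1 with a median of 36.7, and 11 were in both replicates. The longest of its introns, 18116 bp, held 6 of the 17, and no neighbouring summits were closer than 1084 bp. The gene gcn-1, whose yeast homologue activates the kinase of the amino acid starvation response, held 14 members with signals from 29.3 to 57.7 and a median of 31.1, and 6 were in both replicates. Its 14 members were spread over introns with 13 different lengths. Neither gene held an IDR member.

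**Figure D5:**
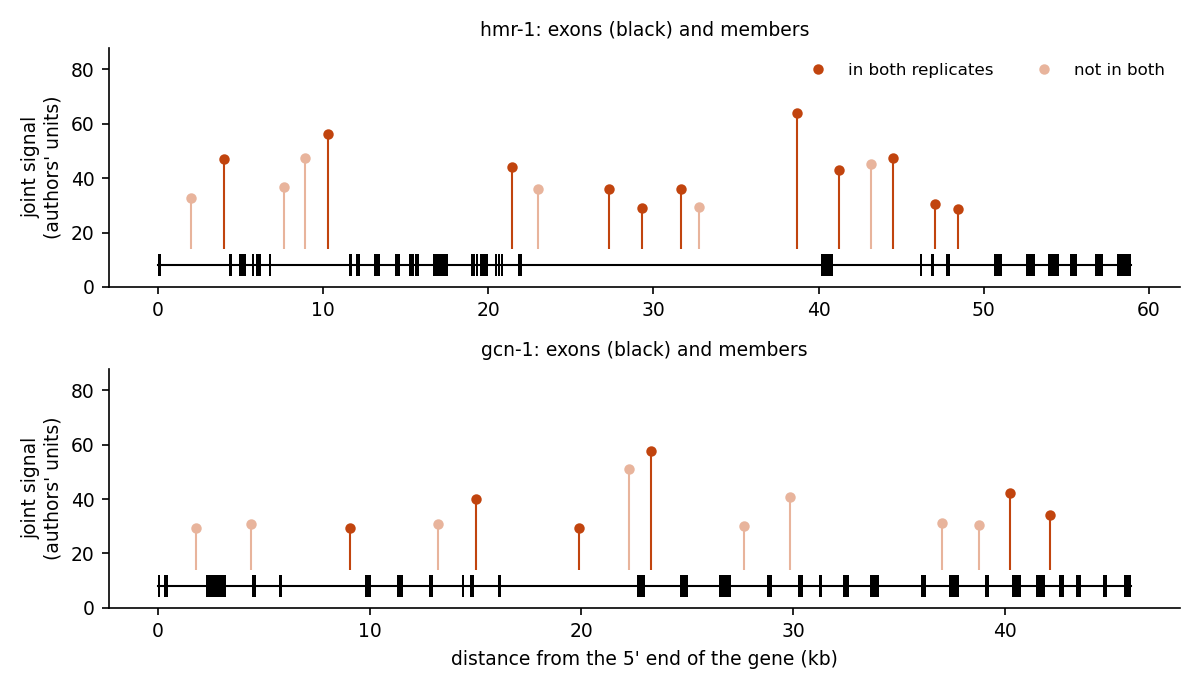
Maps of hmr-1 and gcn-1, the genes with the most members, from the 5′ end of the gene in kb. Black boxes are exons, and each vertical line ends at the joint signal of a member in the authors' units, dark where both replicates listed a region and pale where they did not. The members are scattered over the long introns, and the highest reaches 64.1 in hmr-1 and 57.7 in gcn-1.

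Other genes with many members were Y48C3A.5 (12), cox-6B (10), lin-1 (10), vab-1 (8), aakg-1 (8), mbk-2 (8), jip-1 (8) and F53A10.2 (8). They include lin-1, an ETS transcription factor gene, vab-1, which encodes an ephrin receptor, mbk-2, which encodes a DYRK-family kinase, and jip-1, which encodes a scaffold of the JNK pathway. The highest signal in these genes was 63, in vab-1, and none held an IDR member. All 10 members counted for cox-6B, which encodes a cytochrome c oxidase subunit, also lay within other genes, such as pho-9, and 67 members in all lay within more than 1 gene. For mbk-2, 7 of 8 members were in both replicates, and for lin-1 2 of 10.

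Gene lists were read against the 14.1% of all genes and the 144 members per Mb. Genes of axon guidance and adhesion held a member in 27 of 48 cases (56.2%), at 246 members per Mb of their intron, the highest of the 10 lists. Their strongest regions were in unc-73 (66.5), which encodes a Trio-type guanine nucleotide exchange factor, in hmr-1 (64.1) and in vab-1 (63). The unc-73 region also lay within the gene F55C7.2, 102 bp downstream of its 5′ end, where the promoter rule ends at 100 bp. Of the 94 members in this list, 17 were in hmr-1. The list's median member was at percentile 55.3, against 48.2 for all members, and none was an IDR member. Genes of developmental signalling pathways (Wnt, Notch, TGF-beta, EGF, FGF, insulin and Hedgehog-related) held a member in 33 of 84 cases (39.3%, 211 per Mb). They were led by sel-8 (53), a Mastermind-like partner of Notch, mpk-1 (51), which encodes ERK, and lin-17 (48.9), a Frizzled receptor gene.

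The other lists had densities nearer to the 144 per Mb of all eligible intron, apart from chemoreceptors and Pax genes. Muscle structure genes held a member in 19 of 42 cases (148 per Mb), led by unc-54 (60.7), a myosin heavy chain gene, unc-52 (53.4), which encodes perlecan, and vab-10 (50.1), which encodes a spectraplakin. Ion channel genes did so in 55 of 197 cases (140 per Mb), with twk-42 (60.1), kvs-4 (56.1) and lgc-46 (56.0) highest. The lgc-46 region also lay within the gene acsd-1. Genes of synaptic release did so in 14 of 40 cases (142 per Mb), with unc-104 (93.4), egl-8 (56.6), which encodes a phospholipase C, and unc-25 (46.1), which encodes the enzyme that makes GABA. Cuticle and matrix genes held a member in 19 of 154 cases (154 per Mb), led by col-52 (65.8), unc-52 and col-99 (53.2).

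Transcription factor genes did not stand out in density. Homeobox genes held a member in 14 of 65 cases (21.5%, 129.4 per Mb), with ceh-100 (57.6), lim-7 (57.3) and ceh-86 (57.1) highest. Nuclear hormone receptor genes did so in 31 of 242 cases (12.8%, 146 per Mb), with nhr-243 (64.3), nhr-66 (53.2) and nhr-170 (51) highest. Chemoreceptor genes had the lowest density of the larger lists, 63 of 1127 genes and 96.6 per Mb, and yet srt-52 was an IDR member (110), followed by srh-179 (57.9) and sre-22 (49.7). In the 7 autosomal Pax genes with eligible intron there was 1 member, in egl-38, which encodes a protein of the Pax2/5/8 class. It had 39.6 in the joint list, 23.8 in replicate 1 and 20.7 in replicate 2. No member lay in npax-4 itself. The gene unc-119, mutated in this strain, held 1 member with a joint signal of 40.02 and 29.0 in replicate 2, and replicate 1 had no region there.

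Summits near the limits of the distance rules had similar signal on both sides. Intronic summits up to 100 bp inside the limit downstream of a 5′ end had a median of 34.3 (85 regions), against 34.1 outside it (18 regions). Those up to 100 bp inside the limit upstream of a 5′ end had a median of 35.2 (63 regions), against 34.05 up to 100 bp outside it (68 regions). The M01F1.8 member is the only IDR region of these 4 groups. At the limit of the small RNA rule, the medians were 31.4 inside (18 regions) and 32.2 outside (6 regions), again within 100 bp, and neither side held an IDR region. The summit sequence of 51 bp occurred once in the genome for 98.6% of members, 2 to 10 times for 40 and more than 10 times for 4, against 97.5% with 1 copy in intergenic regions.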

How the data were processed

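The authors deposited lists of regions in narrowPeak form for each replicate, for both replicates together, and after an IDR threshold, and those on ce11 were used here. The deposited lists give a signal per region with its scale not stated, a −log10 q value (read as a description only), and the summit offset from the region's start, a whole number of bases in a score-like column. The relaxed lists were made from alignments with a shared control, per the deposited file descriptions. Which aligner and caller were used, and at which IDR threshold, is not given in the sources used here. No read counts were given, so depth is unknown.

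Regions were classed with the Ensembl release 115 annotation of WBcel235, the same assembly as ce11, using the 5′ ends of all protein-coding transcripts and the exons of all genes. Coordinates are 1-based. Sequence, repeat masking and tRNA pseudogenes came from RefSeq. Autosomal regions with summits outside genes (intergenic) or in promoter zones served as comparison sets. Shares have exact Clopper-Pearson intervals and differences Newcombe intervals. No test was made, since there is 1 condition. Windows took 75 bp on each side of the summit.

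The members, gene lists and words were chosen with earlier results of these data known. Named genes were hosts of IDR members, the 10 genes with most members, the 3 of each list with the strongest region, and npax-4 and unc-119; other genes were chosen after their values were seen. Alternatives covered the 5′ ends, exons, distances, overlap, windows and single replicates. Functions were tested on simulated data. The work was done in Python 3.11.15, with scipy 1.17.1 for intervals, pandas 2.3.3 and numpy 2.4.6 for tables and matplotlib 3.10.9 for figures.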

Additional observations from a re-analysis of the deposited data

How the results depend on the processing

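Among 45 alternative values of the 6 main quantities, 37 differed from the reported value by less than its interval or than the spread between single replicates. The IDR share was 0.0324% with the 177 higher-signal IDR regions (1 member). Without 1 replicate, the 354 highest regions of the other replicate's own list stood in for the IDR call. The share among that list's members was then 0.115 to 0.352%. Over all regions, the 354 were out of 18799 in replicate 2 and 19207 in replicate 1, as deposited. The share in both lists was 47.6% with overlapping regions kept and 39.4% with 50% reciprocal overlap. The median percentile was 48.6 to 50.04, the ratio of first to later introns 1.08 to 1.12 and the GC difference 4.63 to 8.14 points without 1 replicate. That ratio was 1.04 with the longest transcript only. The cause of these shifts was not tested. The IDR members numbered 10 with only gene 5′ ends, 10 with overlapping regions kept and 9 with exons of protein-coding genes only. Members among the 354 highest regions, which are not IDR calls, numbered 5 without replicate 1 and 16 without replicate 2. No paired analysis was possible because there is 1 group. With 6 IDR members, shares and GC differences rest on few regions.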
